A study of Xenopus tropicalis with 10 samples.

Results

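UMOD.3, CHIT1, MYO1H and SCNN1B are 4 of the 26550 genes measured in regenerating tails of *Xenopus tropicalis* tadpoles. They were chosen by their measured rise at 72 hours post amputation (hpa), which was among the largest of genes that carry a symbol. RNA was sequenced from 10 libraries in 6 groups, and the labels give stage 40 for every library, including those at 72 hpa. The whole tail group (2 libraries) is the tail removed by a first amputation, and the 0 hpa group (2 libraries) is the tissue next to that cut, taken from the cut tadpoles by a second amputation straight afterwards. Regenerates are represented by 1 library each at 6 and 15 hpa and by 2 libraries each at 24 and 72 hpa. The labels name no genetic change or drug and do not say how many tadpoles each library holds. Each value is a normalised read number, that is, reads divided by the size factor of their library, and is not corrected for gene length, so levels are compared between libraries and not between genes. In these whole-tissue samples, more cells of a type and more RNA per cell cannot be told apart. No group holds uncut tails from tadpoles as old as those at 72 hpa. Changes with age and changes after the cut therefore cannot be told apart either.

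The 4 genes belong to unrelated families. Uromodulin, the mammalian product of UMOD, is the main protein of normal urine; it is made by the kidney tubule and forms filaments through its zona pellucida domain. CHIT1 encodes chitotriosidase, a secreted chitinase that in humans is made by activated macrophages. MYO1H encodes a class I myosin, a single-headed motor that links actin to membranes. SCNN1B encodes the beta subunit of the epithelial sodium channel, through which kidney, colon and amphibian skin take up sodium.

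The ranking that chose the genes was rebuilt from the deposited values. Genes were ranked by log2 fold change of 72 hpa against 0 hpa on log2(normalised reads + 1), keeping symbol-bearing genes whose 72 hpa libraries both exceeded both 0 hpa libraries (as in 27% of all genes tested) and whose 72 hpa mean reached 5 RPM, a read number scaled to the total of its library. Locus IDs and names ending in LIKE were not counted as symbols. This left 2156 rises, of which 226 passed limma's test at an adjusted p under 0.05. UMOD.3, CHIT1, MYO1H and SCNN1B were the 4 largest of those 226. OCM2 (6.18) and AVD (5.79), which ranked between UMOD.3 and CHIT1, did not pass. Just inside the choice stood SCNN1B at 5.57 ± 1.30 (SE), and just outside stood HMX1 at 5.48, followed by SOHO1 at 5.48 and IFITM3 at 5.19. Of all 17896 genes tested, 2.87% were called higher at 72 hpa than at 0 hpa. Since these values chose the genes, their rise over 0 hpa is a description. Passing limma's test was part of rebuilding the choice and lends the rise no support.

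**Figure D1:**
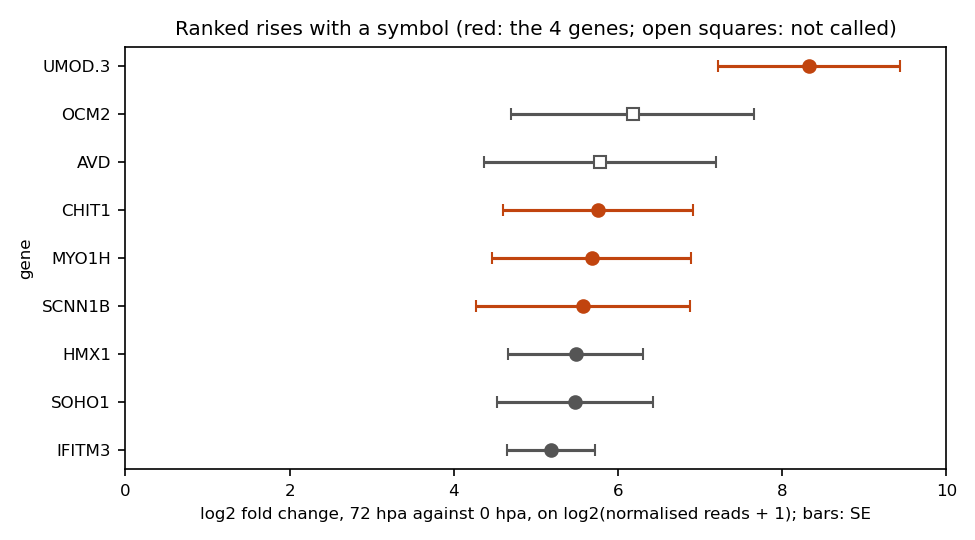
Log2 fold change of 72 hpa against 0 hpa (x axis, bars are standard errors) for the symbol-bearing genes with the largest rises. UMOD.3 had the largest value at 8.33, and OCM2 and AVD (open squares) were not called.

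The name "switched on at 72 hpa" fits UMOD.3 in these libraries and the other genes less well. UMOD.3 had reads in 5 of 10 libraries, whereas CHIT1, MYO1H and SCNN1B each had reads in 10 of 10. In raw reads, the 72 hpa libraries held 99.5% of UMOD.3, 77.6% of CHIT1, 67.6% of MYO1H and 70.7% of SCNN1B. These shares are not scaled for depth and do not rank the genes, as the 6 and 15 hpa libraries were the deepest. In normalised reads, the lower 72 hpa and highest other library stood at 481 and 5.62 for UMOD.3 and 2562 and 623 for CHIT1. For MYO1H they stood at 339 and 165, and for SCNN1B at 202 and 179. Depth also limits the low end, because total gene reads ran from 15966579 in 72 hpa replicate 2 to 128768239 at 6 hpa. A count of 0 allows up to 3 reads, which is 0.852 normalised reads at 6 hpa and 7.29 in 72 hpa replicate 2.

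UMOD.3 was close to absent before 72 hpa. Its counts were 1 and 3 reads in the whole tails (0.928 and 4.07 normalised reads) and 3 and 0 reads at 0 hpa (5.62 and 0). No read was seen at 6 hpa, at 15 hpa or in either 24 hpa library. At 72 hpa it had 778 reads in replicate 1 and 581 reads in replicate 2, which is 481 and 1412 normalised reads (mean 947 ± 658 SD, n = 2).

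Both 72 hpa libraries therefore stood far above the 8 others, and the replicates differed from each other. Replicate 2 was 2.94-fold replicate 1 (95% exact counting interval 2.63 to 3.27), a gap that ranked 1560th of 17896 genes. With reads summed over libraries, the 72 hpa rate was 241-fold the 0 hpa rate (1359 against 3 reads, exact counting interval 82.3 to 1170) and 304-fold the whole tail rate (1359 against 4 reads, 118 to 1117). These intervals cover counting error only. Against a floor of 3 reads per library, the 72 hpa mean was at least 1111-fold higher than 6 hpa, at least 1057-fold higher than 15 hpa and at least 246-fold higher than 24 hpa. These bounds cover the reference only and take the 72 hpa mean as it stands, although its replicates differed 2.94-fold. UMOD.3 passed the filter on low values only through its 72 hpa libraries. Below 72 hpa, the groups cannot be ordered at this depth.

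**Figure D2:**
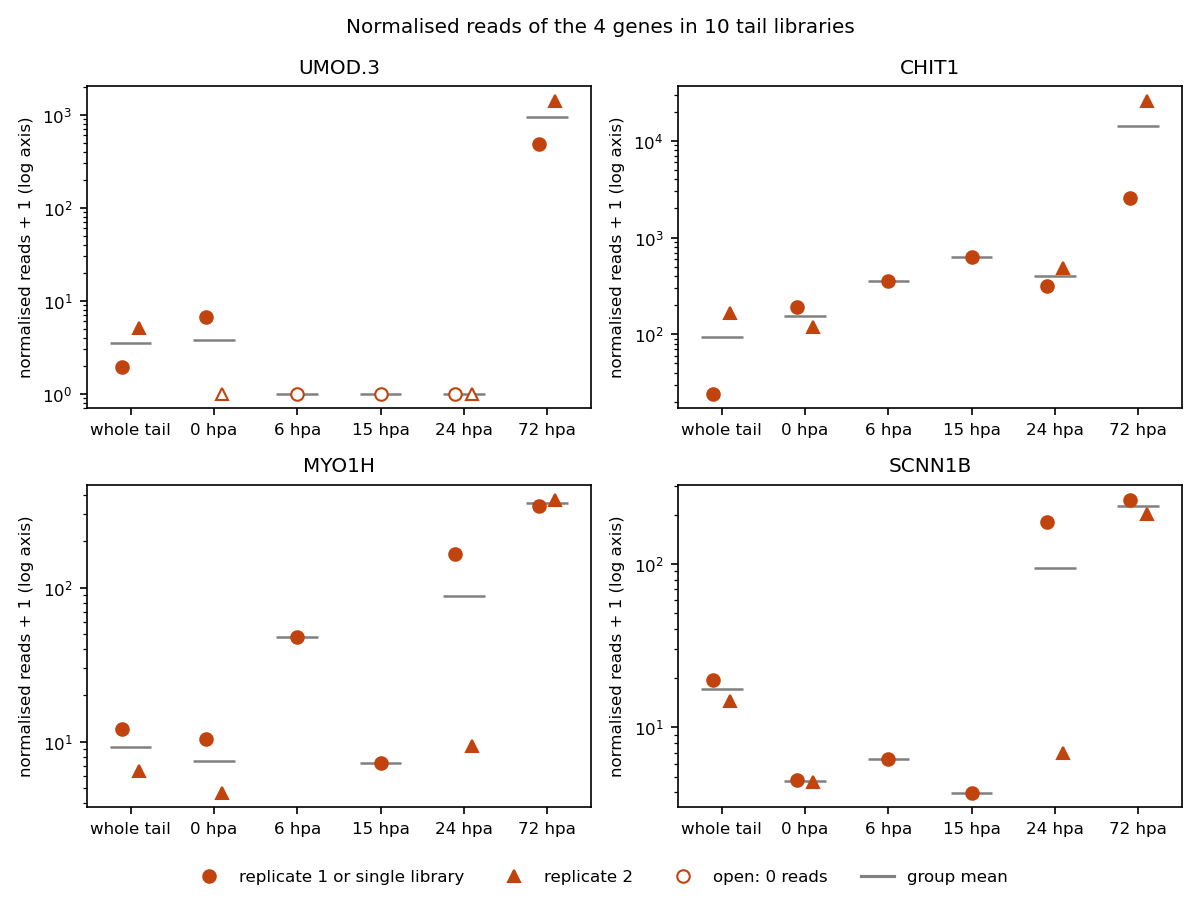
Normalised reads plus 1 (y axis, log scale) of UMOD.3, CHIT1, MYO1H and SCNN1B in the 10 libraries by group; circles are replicate 1 or a single library, triangles replicate 2, open symbols 0 reads, grey lines group means. UMOD.3 is near 0 before 72 hpa, CHIT1 is at 23.2 to 623 before 72 hpa, and MYO1H and SCNN1B are already high in 1 of the 24 hpa libraries (165 and 179).

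The UMOD symbol has further copies in the table. UMOD.1 did not exceed 4.86 normalised reads (72 hpa replicate 2) and UMOD.2 did not exceed 4.26 (6 hpa), so neither was tested. The sources do not state how reads shared by near-identical copies were assigned, which leaves the split between the 3 copies uncertain. Of the other genes on a list of zona pellucida domain proteins, 7 were tested at 72 hpa against 0 hpa and 0 were called by limma or edgeR, with 2 at an unadjusted p under 0.05 and 1 called by DESeq2. Their median log2 fold change was -0.24, against 0.02 for all genes. Of all genes tested at 72 hpa against 0 hpa, limma called 2.87% higher and 3.53% lower. A count of 0 in a list of 7 or 16 genes is near those shares. Among the 17896 genes, 4310 had an unadjusted limma p under 0.05, and DESeq2 called 2348. Of 16 tested genes of the nephric tubule and glomus, limma and edgeR called 0 at 72 hpa against 0 hpa (5 at an unadjusted p under 0.05, 1 by DESeq2), with a median of -0.64. In value, 6 of the 16 were higher at 72 hpa than at 0 hpa. SLC12A1, the salt transporter of the tubule segment that makes uromodulin in mammals, was named after its values were seen. SLC12A1 was at 2.47 and 0 normalised reads at 72 hpa and at 46.4 and 32.6 in the whole tails. Limma called it neither against whole tail nor against 0 hpa. The summed level of the 21 nephric genes was 3208 and 3636 normalised reads at 72 hpa and 3379 to 4396 in the whole tail and 0 hpa libraries. Their part in the UMOD.3 values was not tested.

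CHIT1 was detected in every library, and its 72 hpa libraries were the highest. The whole tails held 23.2 and 163 normalised reads (25 and 120 reads), and the 0 hpa libraries 191 and 119. The single libraries stood at 358 (6 hpa) and 623 (15 hpa), and the 24 hpa libraries at 317 and 483. At 72 hpa CHIT1 reached 2562 normalised reads in replicate 1 (4143 reads) and 26121 in replicate 2 (10748 reads), both above every earlier library.

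In order of group mean, CHIT1 ran from 72 hpa (14341) through 15 hpa (623), 24 hpa (400), 6 hpa (358) and 0 hpa (155) to whole tail (93.0). The 6 hpa value lay between the 24 hpa replicates, and whole tail replicate 2 lay between the 0 hpa replicates, so these neighbours did not differ beyond their spread. The 15 hpa library was above both 24 hpa libraries, but it has no replicate. From 0 hpa the level was 5.75 ± 1.16 (SE) higher on the log2 scale at 72 hpa.

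The size of the CHIT1 rise rested on which 72 hpa library was read. Replicate 2 was 10.2-fold replicate 1 (exact counting interval 9.84 to 10.6), and this gap ranked 263rd of 17896 genes at 72 hpa. Without replicate 2 the log2 fold change over 0 hpa was 4.08, and without replicate 1 it was 7.43. The whole tail replicates also differed, by 7.02-fold (4.53 to 11.3). Phagocyte markers did not show this gap in their sum, as 10 detected genes of that list summed to 23758 normalised reads in 72 hpa replicate 1 and 21397 in replicate 2. Skeletal muscle markers did, at 131612 and 680988. The other 6 genes of the chitinase and chitin synthesis list summed to 12860 and 47620, but most of that was GFPT1, at 7646 and 39430. UAP1, GFPT2 and CHIA were also higher in replicate 2. CTBS (728 and 629) and AMDHD2 (1085 and 928) were lower there. Outside the lists, the symbol-bearing genes with the largest gaps in this direction were IRG1, an enzyme of activated macrophages (155 and 23132), and IL12B (8.04 and 1235). These were named after their values were seen, and other genes such as ITLN1 (2319 and 72.9) went the other way. The part of these genes in the CHIT1 difference was not tested.

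Phagocyte markers as a list were higher at 72 hpa. Of 10 tested, 7 were called higher than at 0 hpa (2.87% of all genes were), with a median log2 fold change of 1.54. CSF1R, the receptor for macrophage colony-stimulating factor, rose by 2.21 ± 0.16 (SE, limma adjusted p = 0.0027) and stayed called without any 1 of the 4 libraries. The count of 7 fell to 1 without either 0 hpa library and to 2 without either 72 hpa library or without the filter on low values. At 24 hpa against whole tail, 6 of 10 genes of the list were called higher (0.793% of all genes were), and CHIT1 was not (limma adjusted p = 0.29). That count was 0 without any 1 of the whole tail, 0 hpa or 24 hpa libraries. In the single 15 hpa library the summed level of the list, 28581 normalised reads, was above both 72 hpa libraries. CHIT1 there was at 623, below its 72 hpa values of 2562 and 26121, which differed widely. The part of phagocytes in the CHIT1 values was not tested.

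Of the other chitinase and chitin synthesis genes, 6 were tested and 1, GFPT2, was called higher (2.87% of all genes were). GFPT2, which starts the hexosamine pathway, was 1.03 ± 0.22 (SE) higher on the log2 scale at 72 hpa than at 0 hpa (limma adjusted p = 0.037). That call was lost without any 1 of the 4 libraries (adjusted p 0.052 to 0.20). CHIA, the related acidic chitinase, stayed between 29.7 and 80.6 normalised reads in all 10 libraries.

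MYO1H agreed well between the 72 hpa replicates and poorly between the 24 hpa replicates. The whole tails held 11.1 and 5.43 normalised reads and the 0 hpa libraries 9.37 and 3.66. At 6 hpa MYO1H stood at 46.6 (164 reads) and at 15 hpa at 6.27 (21 reads), a 7.43-fold difference (exact counting interval 4.70 to 12.3) between single libraries. At 24 hpa replicate 1 held 165 normalised reads (121 reads) and replicate 2 held 8.41 (7 reads). At 72 hpa both libraries were high, at 339 and 372 (mean 355 ± 23.3 SD, n = 2).

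The 72 hpa libraries were the highest, but 1 of the 24 hpa libraries and the 6 hpa library were also above the whole tail and 0 hpa range. The 24 hpa mean was 24.5% of the 72 hpa mean and the 6 hpa value 13.1%. Replicate 1 was 19.7-fold replicate 2 at 24 hpa (exact counting interval 9.27 to 50.01), a gap that ranked 52nd of 17896 genes. At 72 hpa replicate 2 was 1.097-fold replicate 1 (0.911 to 1.32). From 0 hpa the level was 5.68 ± 1.21 (SE) higher on the log2 scale at 72 hpa, with 701 against 7 reads. Whole tail, 0 hpa and 15 hpa did not differ beyond their spread.

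SCNN1B had the same split at 24 hpa. The whole tails held 18.6 and 13.6 normalised reads, and every library at 0, 6 and 15 hpa held 2.98 to 5.40. At 24 hpa replicate 1 held 179 (131 reads) and replicate 2 held 6.00 (5 reads). At 72 hpa the values were 245 (397 reads) and 202 (83 reads), with a mean of 224 ± 30.9 SD (n = 2).

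The 24 hpa replicate 1 value was thus close to the 72 hpa values, while replicate 2 was within the range of the earlier groups. The ratio of the 24 hpa replicates was 29.8 (exact counting interval 12.5 to 93.4), which ranked 33rd of 17896 genes. Both whole tail libraries were above both 0 hpa libraries, which had 2 reads each. With reads summed, the 72 hpa rate was 63.9-fold the 0 hpa rate (480 against 4 reads, 24.8 to 235) and 14.3-fold the whole tail rate (480 against 30 reads, 9.90 to 21.5). The rise over 0 hpa is thus measured from a lower base than the rise over whole tail.

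The gene SCNN1G-LIKE, named here after its values were seen, resembled SCNN1B. SCNN1G encodes the gamma subunit of the same channel. SCNN1G-LIKE stood at 91.6 and 31.2 normalised reads at 24 hpa and at 113 and 82.6 at 72 hpa, against 7.33 to 36.6 in the whole tail and 0 hpa libraries. Its 24 hpa replicates differed 2.93-fold (exact counting interval 1.84 to 4.81). At 72 hpa against 0 hpa it was 3.17 ± 0.75 (SE) higher on the log2 scale and missed the threshold narrowly (limma adjusted p = 0.051). It passed with DESeq2 (adjusted p = 0.0035), with a pseudocount of 5 (0.044) and in the 8 duplicated libraries alone (0.047), and in none of the fits that leave out 1 library (0.053 to 0.16).

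Among other channel subunits and regulators, 17 were tested and 1 was called higher at 72 hpa against 0 hpa (2.87% of all genes were), with a median of -0.22. This was HSD11B2, the enzyme that inactivates cortisol in salt-transporting cells, at 2.80 ± 0.43 (SE, limma adjusted p = 0.017). It stood at 160 and 97.3 normalised reads at 24 hpa and 107 and 109 at 72 hpa, against 13.1 and 16.5 at 0 hpa and 38.0 and 32.6 in the whole tails. The call was lost without any 1 of the 4 libraries (adjusted p 0.052 to 0.093). SGK1, the kinase that raises channel number in mammals, had a log2 fold change of -1.72 and was not called (limma adjusted p = 0.083). Of 12 ionocyte markers, 4 were called lower than at 0 hpa (3.53% of all genes were), among them SLC4A1, an anion exchanger (fell by 4.76 ± 0.58), and FOXI1, the ionocyte transcription factor (fell by 3.05 ± 0.55). Leaving out 1 of the 4 libraries removed the ATP6V0D2 call in 4 of 4 fits, the FOXI1 and SLC26A4 calls in 3 of 4 each and the SLC4A1 call in none; the count was 1 without either 0 hpa library and 2 without 72 hpa replicate 2.

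**Figure D3:**
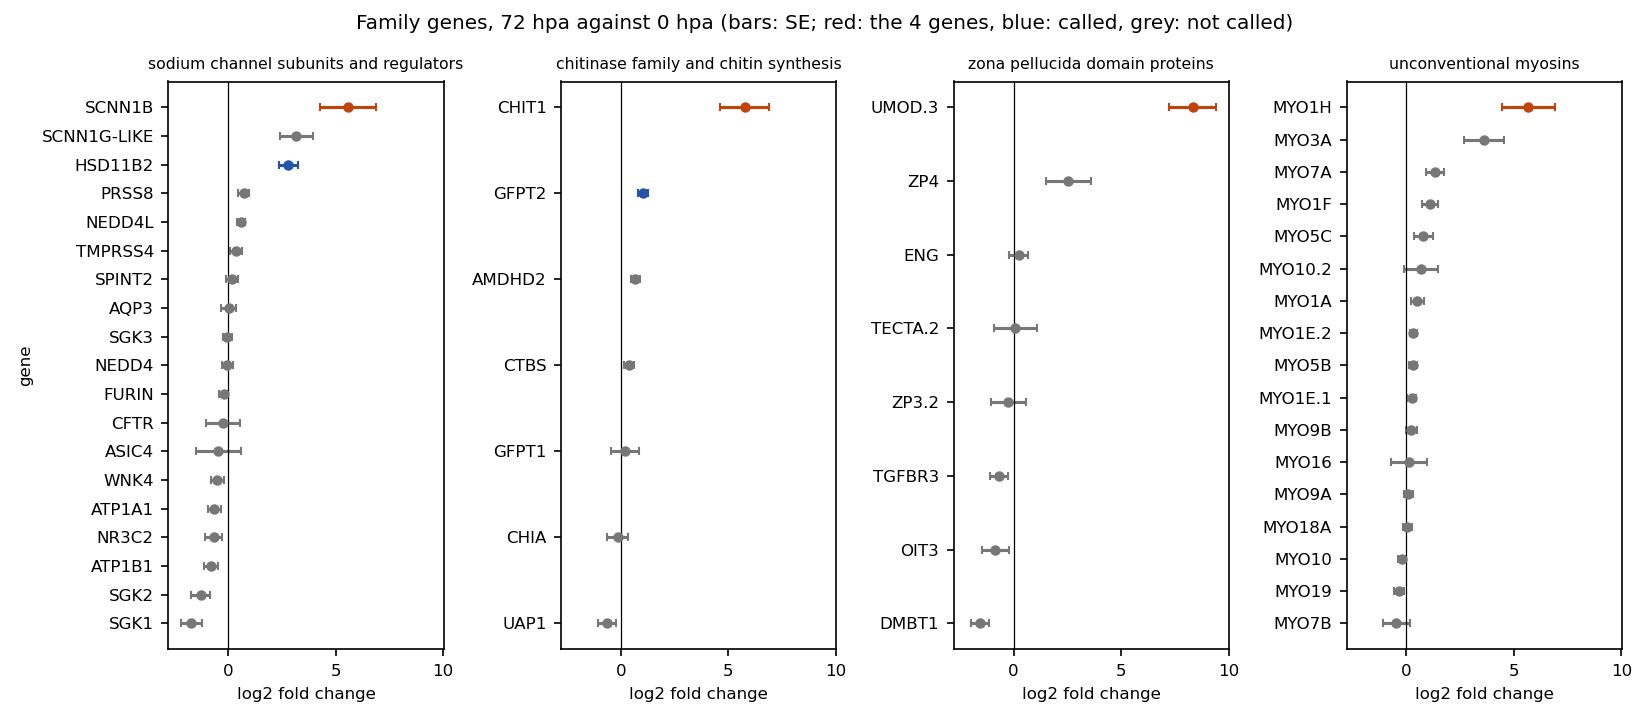
Log2 fold change of 72 hpa against 0 hpa (x axis, bars are standard errors) for the 4 genes (red) and the tested genes of their family lists (blue called, grey not called). HSD11B2 (2.80) and GFPT2 (1.03) are the called genes of the 4 lists besides the red ones, and SCNN1G-LIKE is shown beside the sodium channel list.

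The disagreement of the 24 hpa replicates was not general. Of all genes tested, 50.6% were higher in 24 hpa replicate 1 and 359 (2.01%) were more than 2 log2 units higher. Of the hair cell and lateral line list, whose cells are the mechanosensory receptors of the tadpole skin, 8 of 9 tested genes were higher in replicate 1 and 3 were more than 2 log2 units higher, with a median difference of 1.32 against 0.01 for all genes. Of 20 skeletal muscle genes, 19 were higher in replicate 1 (median 1.43, 3 more than 2 log2 units). The medians were 0.77 for 12 ionocyte genes (10 higher), 0.63 for 8 goblet and small secretory cell genes (8 higher), 0.43 for 16 nephric genes (12 higher) and -0.36 for 10 phagocyte genes (0 higher). Their part in the MYO1H and SCNN1B difference was not tested.

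**Figure D4:**
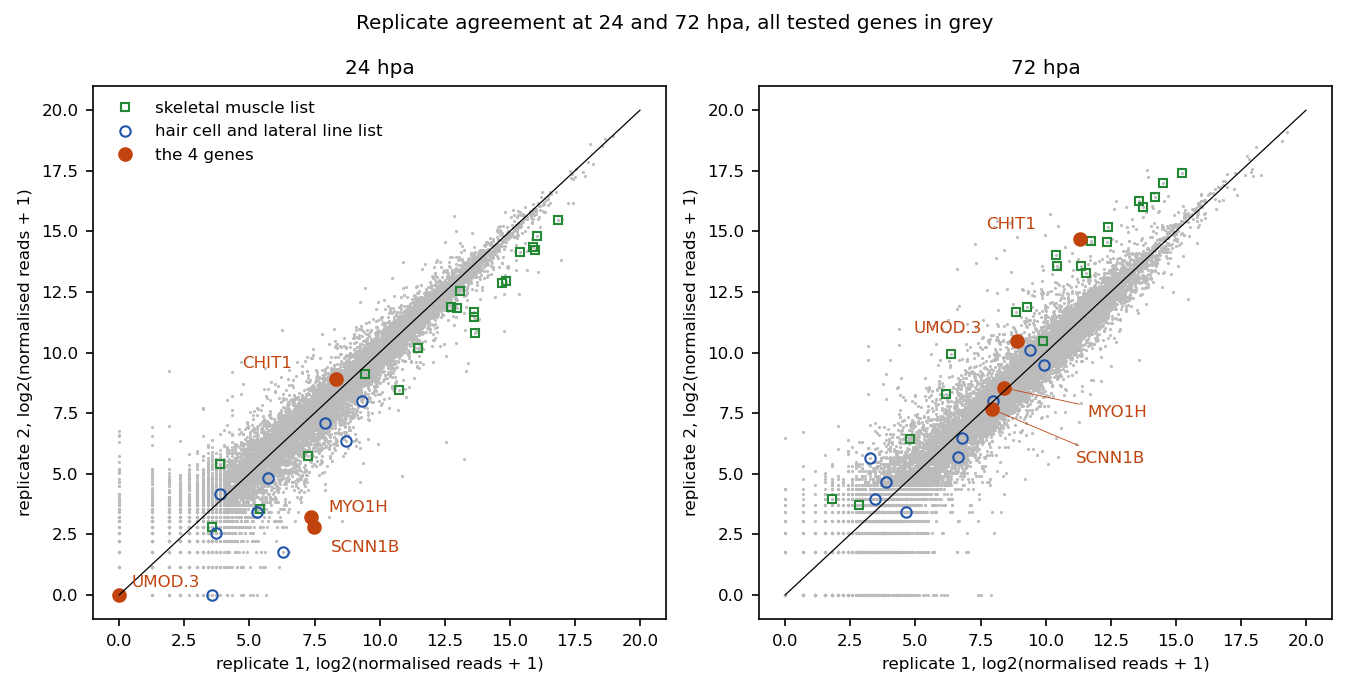
Replicate 1 (x axis) against replicate 2 (y axis), log2(normalised reads + 1), at 24 and 72 hpa; grey points are all 17896 tested genes and the line marks equality. At 24 hpa MYO1H (165 and 8.41 normalised reads) and SCNN1B (179 and 6.00) lie far below the line, and at 72 hpa CHIT1 (2562 and 26121) lies far above it.

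Several genes of the hair cell list had high and low libraries in the same places as MYO1H. OTOF, which encodes the calcium sensor otoferlin of hair cell synapses, held 36.6 to 44.5 normalised reads in the whole tail and 0 hpa libraries. It then stood at 189 (6 hpa), 50.7 (15 hpa), 413 and 80.5 (24 hpa) and 983 and 715 (72 hpa). TMPRSS3, a protease needed for hearing in humans, held 0.928 to 9.16 in the whole tail and 0 hpa libraries, 77.9 and 2.40 at 24 hpa, and 108 and 87.5 at 72 hpa. ATOH1, the transcription factor that starts hair cell differentiation, was at 10.9 and 0 at 24 hpa and at 24.1 and 9.72 at 72 hpa, and at most at 1.36 in the whole tail and 0 hpa libraries. POU4F3, another hair cell transcription factor, did not exceed 13.6 and was not tested. Other genes of the list had a different pattern. GFI1, a transcription factor, stood at 31.5 at 6 hpa and 35.5 at 15 hpa, between which OTOF fell. TMC1, a subunit of the hair cell transduction channel, was highest at 476 normalised reads in 0 hpa replicate 1, against 9.16 in 0 hpa replicate 2 and 8.66 and 48.6 at 72 hpa, and its log2 fold change over 0 hpa was -1.67 (not called, limma adjusted p = 0.64). STRC, which encodes stereocilin of the hair bundle, held 5.57 to 22.0 in all 10 libraries, with 13.7 and 16.8 at 24 hpa.

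Few genes of this list passed limma's test (2.87% of all genes were called higher than at 0 hpa). By DESeq2, 2348 of all 17896 genes were called in that comparison. At 72 hpa against 0 hpa, 1 of 9 was called higher (OTOF, 4.27 ± 0.68 SE, limma adjusted p = 0.020), and the median was 1.23 against 0.02 for all genes. The OTOF call was lost without any 1 of the 4 libraries (adjusted p 0.062 to 0.11) and without the filter on low values, and DESeq2 called 3 of 9. At 72 hpa against whole tail, where 4.61% of all genes were called higher, 3 of 9 were: OTOF (4.34), GFI1 (3.31) and TMPRSS3 (5.53). This count was 0 without either whole tail library or without 72 hpa replicate 2, and 1 without 72 hpa replicate 1. The summed level of the 11 hair cell genes in the table was 2196 and 2333 normalised reads at 72 hpa, 1515 and 536 at 24 hpa and 638 to 1474 in the whole tail and 0 hpa libraries. Their part in the MYO1H values was not tested.

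Other unconventional myosins gave a count near the share of all genes at 72 hpa against 0 hpa, where 2.87% were called higher and 3.53% lower. Of 16 tested at 72 hpa against 0 hpa, 0 were called by limma or edgeR, with 3 at an unadjusted p under 0.05 and 2 called by DESeq2. Among all 17896 genes, 4310 had an unadjusted limma p under 0.05, and DESeq2 called 2348. Against whole tail, 4.61% of all genes were called higher. Of the 16 myosins, 3 were: MYO3A (4.33 ± 0.91 SE, limma adjusted p = 0.030), MYO7A (1.81 ± 0.43, 0.042) and MYO1F (1.66 ± 0.38, 0.036). MYO3A and MYO7A are motors of the hair bundle, and MYO1F is a class I myosin of white blood cells. That count was 0 without whole tail replicate 2, without either 72 hpa replicate or without the filter, and 1 without whole tail replicate 1. MYO3A stood at 34.2 and 7.20 normalised reads at 24 hpa and at 64.9 and 53.5 at 72 hpa. The class I myosins MYO1A, MYO1E.1, MYO1E.2, MYO1C-LIKE and MYO1D-LIKE were not called in either comparison, with log2 fold changes of 0.51, 0.24, 0.33, -0.28 and 1.19 over 0 hpa. MYO15A-LIKE.2, a copy named after its values were seen, was 2.18 ± 0.35 (SE) higher than at 0 hpa (limma adjusted p = 0.019, 0.060 to 0.11 without any 1 of the 4 libraries). The other copy, MYO15A-LIKE.1, had a log2 fold change of 0.14 and was not called (limma adjusted p = 0.79).

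In the remaining marker lists, 1 gene was called higher, against 2.87% of all genes. At 72 hpa against 0 hpa, where 3.53% of all genes were called lower, goblet and small secretory cell markers had 5 of 8 called lower, led by the lectins ITLN1 (fell by 7.03 ± 1.30) and ITLN2 (fell by 6.92 ± 1.24); edgeR called 3. That count was 0 without either 0 hpa library and 2 without either 72 hpa library. Cartilage markers had 4 of 10 called lower, 3 of them type IX collagen genes; the count was 0 without either 0 hpa library or 72 hpa replicate 2. Gut markers had 1 of 11 called lower (APOA4), a call lost without any 1 of the 4 libraries. Thyroid hormone and corticoid response genes had 1 of 11 called higher, the protease gene MMP11 (2.52 ± 0.41), whose call was lost without any 1 of the 4 libraries (limma adjusted p 0.055 to 0.12). Limma and edgeR called 0 of 29 epidermal barrier genes and 0 of 20 skeletal muscle genes. An unadjusted limma p under 0.05 was seen for 10 and 1 of them (4310 of all 17896 genes). DESeq2 called 4 and 1 (2348 of all genes). The 20 skeletal muscle genes summed to 111518 to 680988 normalised reads over the 10 libraries; the labelled tissue's muscle markers were thus present throughout.

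The rise was also described against the other references, which share the same 72 hpa libraries. Over 24 hpa the log2 fold changes were 4.38 (CHIT1), 3.17 (MYO1H) and 2.65 (SCNN1B). UMOD.3 had no read at 24 hpa, and its 72 hpa mean was at least 246-fold higher against the floor of 3 reads per library. Over whole tail they were 8.04 (UMOD.3), 7.02 (CHIT1), 5.33 (MYO1H) and 3.73 (SCNN1B). Among all genes tested, 0.0391% (7 genes) were called higher and 0.0335% lower at 72 hpa than at 24 hpa, and 4.61% higher and 4.68% lower than in whole tail. The 24 hpa values turned on 1 library: without 24 hpa replicate 1, MYO1H was 5.24 and SCNN1B 4.996 higher at 72 hpa, and without replicate 2 they were 1.096 and 0.31 higher.

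CHIT1, MYO1H and SCNN1B were tested at 24 hpa against whole tail. The levels compared there did not enter the fold change that ranked the genes. The spread is estimated over all 10 libraries, both in this test and in the limma call of the rebuilt choice. The replicate gaps at whole tail and 24 hpa thus had a part in that call. Of the 3 genes, 0 passed with limma or edgeR, 0 had an unadjusted p under 0.05, and DESeq2 called 1 (MYO1H). Of all 17896 genes, limma called 0.793% higher and 0.313% lower, 3145 had an unadjusted limma p under 0.05, and DESeq2 called 1309. A fit on the 4 whole tail and 24 hpa libraries alone, added after the data were seen, gave limma adjusted p of 0.23 (CHIT1), 0.46 (MYO1H) and 0.75 (SCNN1B). There 1 of the 3 had an unadjusted p under 0.05, as had 3067 of 16909 genes. CHIT1 was 2.64 ± 1.16 (SE) higher on the log2 scale (limma adjusted p = 0.29), and both 24 hpa libraries were above both whole tails. MYO1H was 2.16 ± 1.21 higher (adjusted p = 0.40, DESeq2 adjusted p = 0.021), with 0.09 without 24 hpa replicate 1 and 4.24 without replicate 2. SCNN1B was 1.07 ± 1.30 higher (adjusted p = 0.72), and its sign turned to -1.27 without 24 hpa replicate 1. UMOD.3, with 4 reads in the whole tails and 0 at 24 hpa, was not tested, since it passed the filter only through the 72 hpa libraries.

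Across the 10 libraries, the 4 genes formed a loose group. Pearson's r of log2(normalised reads + 1) was 0.90 between MYO1H and SCNN1B, 0.78 between UMOD.3 and CHIT1 and 0.57 to 0.71 for the other pairs. All of these include the 72 hpa libraries that chose the genes. Among all symbol-bearing genes tested, those most like UMOD.3 were PPP1R16B (0.94), CLDN24 (0.93) and AAED1 (0.92). Those most like CHIT1 were RGS18 (0.96), DAGLB (0.96) and SCCPDH (0.96). Those most like MYO1H were ODF3L2 (0.99), OTOF (0.98) and GRXCR1 (0.97), and those most like SCNN1B were CALML4 (0.97), ADMP2 (0.94) and ART5 (0.92).

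The size of the rise differed widely among these companions. DAGLB went from 588 to 1084 normalised reads over the 10 libraries and AAED1 from 239 to 523. CLDN24 had at most 0.895 before 72 hpa and 11.1 and 19.4 at 72 hpa. ODF3L2 held 31.5 and 1.201 at 24 hpa and 67.4 and 92.4 at 72 hpa, again with 24 hpa replicate 1 above replicate 2. CALML4 held 196 and 60.04 at 24 hpa and 278 and 357 at 72 hpa.

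**Figure D5:**
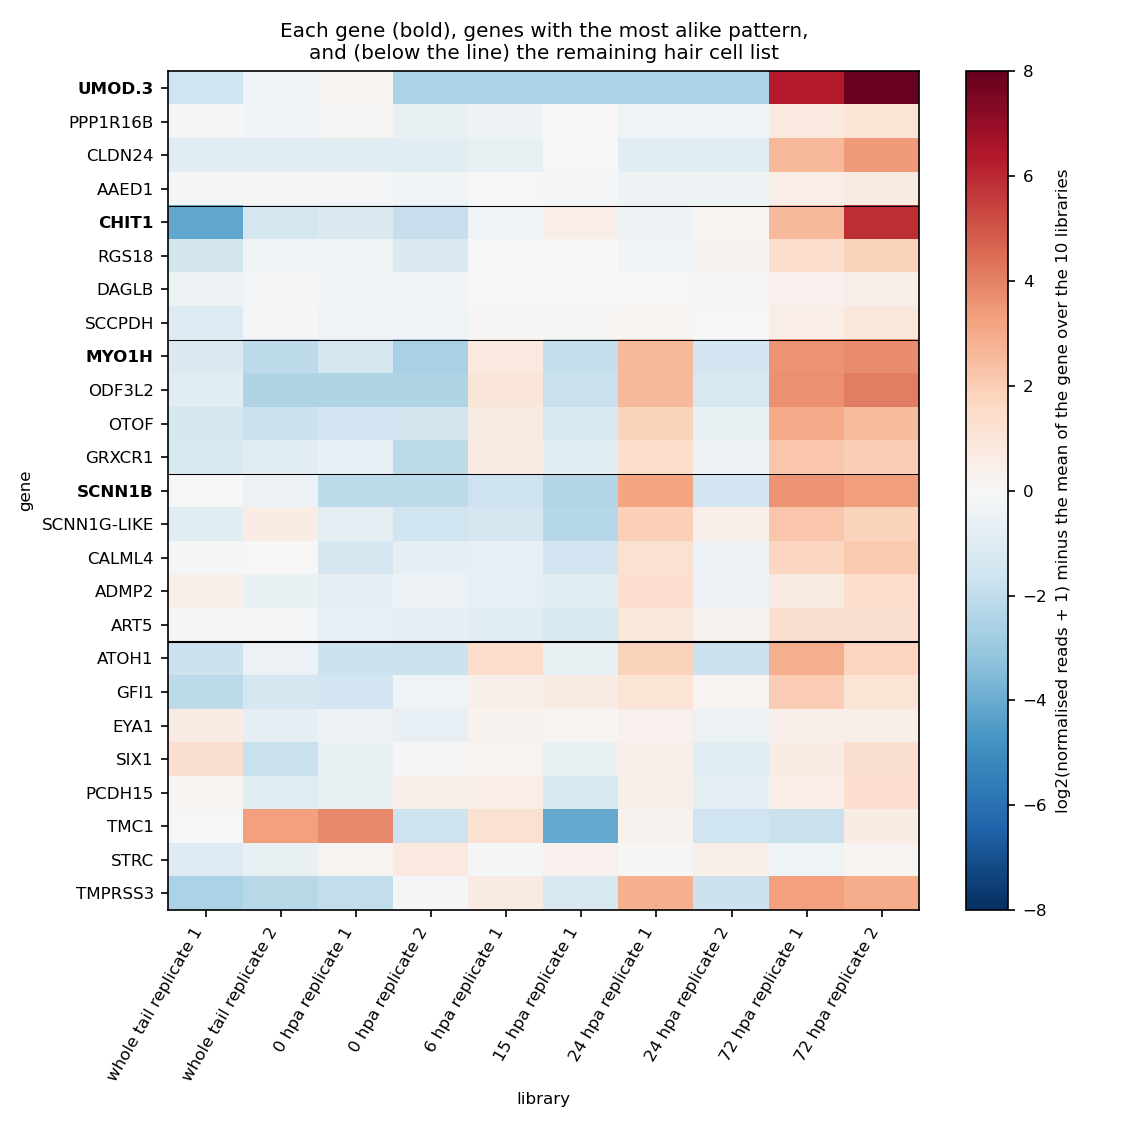
Log2(normalised reads + 1) minus the mean of the gene (colour) in the 10 libraries (x axis) for the 4 genes (bold), the 3 most alike genes under each, SCNN1G-LIKE and, below the lower line, the remaining hair cell list. The MYO1H block and the TMPRSS3 row are red at 24 hpa replicate 1 and pale or blue at replicate 2, while the UMOD.3 row is deep red at 72 hpa.

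No tested gene next to the 4 on the chromosome was called at 72 hpa against 0 hpa. Of all genes, 2.87% were called higher and 3.53% lower, so no call among a few neighbours is near those shares. In the order of NCBI RefSeq's annotation of assembly UCB_Xtro_10.0, UMOD.3 lies between MGC89178 and PDILT. MGC89178 held 0 to 5.50 normalised reads up to 24 hpa and 8.04 and 72.9 at 72 hpa, and was too low to be tested. PDILT, which lies on the other side, had a log2 fold change of -1.002 and was not called. CHIT1 is followed by TAF8, MYO1H lies between FOXN4 and KCTD10, and SCNN1B follows COG7; none of these 4 neighbours was called in the comparison with 0 hpa. On the remaining sides the adjacent genes in that annotation, pifo (CHIT1) and scnn1g (SCNN1B), have no row under those symbols in the table analysed. SCNN1B and the gene of the gamma subunit are thus neighbours; whether SCNN1G-LIKE is that gene was not determined. The nearest genes with a row there, USP49 (CHIT1) and USP31 (SCNN1B), were not called either.

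In the authors' deposited table, all 4 genes carry the flag for differential expression, as do 5089 of the 26550 genes. A cluster is given for 2511 genes. The 4 genes were chosen as large rises in these same libraries, so the flag and the cluster lend the rise no separate support. UMOD.3, CHIT1 and MYO1H are placed in cluster 8 of 8 in the authors' deposited table, and SCNN1B is in no cluster. Cluster 8 holds 431 genes, and all 431 had their highest group mean at 72 hpa in the normalised reads. Of the genes most like the 4, OTOF, ODF3L2, GRXCR1 and RGS18 are in the same cluster of the authors' deposited table. DAGLB and SCCPDH are in cluster 7. PPP1R16B, CLDN24, AAED1, CALML4, ADMP2 and ART5 are in none, and neither is SCNN1G-LIKE.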

How the data were processed

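Total RNA of tadpole tails was made into libraries with the TruSeq RNA kit, per the labels' protocols. Reads were trimmed, mapped and counted with tools that include TopHat2 2.0.13, Trim Galore 0.3.3, HTSeq and DESeq2, per the submitters' processing notes, which state neither a genome build nor counting options. The authors deposited 1 table of signal values, which are reads divided by DESeq2 size factors: 100% of values were whole multiples of a library step (tolerance 0.01 reads), so whole reads were recovered. The cluster and differential expression columns are the authors' deposited labels.

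The main test was limma 3.58.1 (R 4.3.3) on log2(normalised reads + 1) with a mean-variance trend over all 10 libraries (4 residual degrees of freedom), for the 17896 genes that reached 10 normalised reads in 2 or more libraries. Benjamini-Hochberg adjusted p under 0.05 was called. Replicates are separate samples by label, and nothing says they are separate clutches, so p-values cover only sample-to-sample spread, which may be technical. Alternatives were edgeR 4.0.16 and DESeq2 1.42.0 on recovered reads, no filter, other pseudocounts, the 8 duplicated libraries, a replicate block, leaving out each library and, added later, the whole tail and 24 hpa libraries alone. Ratios of single genes carry exact binomial counting intervals (95%). The code was tested on simulated data for 72 hpa against 0 hpa, with 50 changed genes per size of change. It recovered 6% of changes of 1 log2 unit, 68% of 2, 86% of 3 and 82% of 4 units. Of 135 calls there, 14 were false.

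The 4 genes and all gene lists were chosen with earlier results of these data known. Named genes are the 4, genes ranked between or just below them, copies of their symbols, their families, the 3 most correlated genes each, and up to 4 called genes per list; other names were chosen after their values were seen. Lists were sodium channel, chitinase, zona pellucida, unconventional myosin, nephric, gut, ionocyte, goblet, epidermal barrier, phagocyte, hair cell, cartilage, skeletal muscle, and thyroid hormone and corticoid response genes. Sequences were not used here.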

Additional observations from a re-analysis of the deposited data

How the results depend on the processing

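Counts of called genes depended on the settings, and the cause was not tested. Against the main counts of 1145 (72 hpa against 0 hpa), 13 (72 against 24 hpa), 1663 (72 hpa against whole tail) and 198 (24 hpa against whole tail), DESeq2 called 2348, 539, 3138 and 1309 and limma without the filter called 232, 27, 610 and 57, with more genes tested. For 72 against 24 hpa, edgeR called 2 with TMM and 2 with DESeq2 size factors, and a pseudocount of 5 gave 20. For 24 hpa against whole tail, the 4 libraries of those groups alone gave 0 limma calls among 16909 genes, with 3067 at an unadjusted p under 0.05. Leaving out 1 library gave 153 to 922, 1 to 60, 232 to 1477 and 2 to 139 calls; the lone sample of a group is then assumed to vary like the others. The 24 hpa log2 fold change of SCNN1B over whole tail ran from -1.27 without 24 hpa replicate 1 to 3.42 without replicate 2. Of the other tested values on CHIT1, MYO1H, SCNN1B and SCNN1G-LIKE, 113 kept their direction and side of the threshold and 4 passed only under the alternative. Of the values of the 4 genes that were described without a test, 187 moved by no more than the replicate spread and 21 by more, in the same direction. Leaving out a library cannot, by construction, move a value by more than that spread. The 187 therefore do not measure stability to leaving out a library. CHIT1 over 0 hpa went from 5.75 to 4.08 without 72 hpa replicate 2 and to 7.43 without replicate 1. UMOD.3 has no value without either 72 hpa library, since it then failed the filter.

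Correlations of deviations between same-numbered libraries ran from -0.13 to 0.27, the highest between 0 and 24 hpa. They cannot tell whether same-numbered libraries share a batch or clutch. With the replicate as a block, 1250, 45, 1944 and 195 genes were called; crossing the numbers gave 6 calls for 72 against 24 hpa and 1649 for 72 hpa against whole tail.

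With 2 libraries per group and 15966579 to 128768239 reads, gaps between replicates of 10-fold or more, as for CHIT1, MYO1H and SCNN1B, limit the precision more than counting error does.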

Other observations

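By the rank of the gap between the 72 hpa libraries, in log2 units, the 5 symbol-bearing genes furthest above in replicate 2 were IRG1, IL12B, THY1, IL17C and TNIP3, and the 5 furthest above in replicate 1 were SCFD2, MAMDC4, GPR26, ITLN1 and SPAG16; they are named after their values were seen. IRG1, an enzyme that makes itaconate in activated macrophages, stood at 155 normalised reads in replicate 1 and 23132 in replicate 2, and IL12B, a cytokine subunit, at 8.04 and 1235. In the other direction, ITLN1 stood at 2319 in replicate 1 and 72.9 in replicate 2, and GPR26 at 129 and 2.43. AVD, which encodes avidin and had a log2 fold change of 5.79 over 0 hpa, stood at 407 in replicate 1 and 10256 in replicate 2, and at 1043 in the 15 hpa library.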
